A study of Mus musculus with 24 samples.

Results

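Toll-like receptors (TLRs) and the machinery of endosomal nucleic acid sensing were followed in the mouse retina after blast-mediated traumatic brain injury (bTBI). The group holds 10 genes that were picked by name from these data because Unc93b1, Pld4 and Cd180 were higher in bTBI retinas at 1 week, so the values at 1 week describe the choice. They are given without p-values, and whether a member passed the threshold of the fit over the whole table is stated for description only. The table of 1 week holds 9 of the 10 genes among 14922, and the table of 5 weeks holds 5 of the 10 among 15920. The retinas came from adult male C57BL/6J mice. Of the 24 retinas, 6 bTBI and 6 sham retinas were taken at 1 week, which the labels give as 8 days, and as many at 5 weeks. The bTBI mice had met a pressure wave inside a closed chamber, and the sham mice had not. The mice of all 4 groups were of the same strain and sex and carried no transgene. Sham mice were handled like bTBI mice, with the same anesthesia (ketamine and xylazine, the latter reversed with yohimbine) and analgesic (buprenorphine), and the retina of a bTBI mouse was that of the eye facing the blast. A different RNA kit served each timepoint (RNeasy Plus Mini first, RNeasy Mini later), so kit and timepoint cannot be told apart, while sham and bTBI retinas of a timepoint shared a kit. The labels call the cell type retinal ganglion cell, but the summed value of 5 photoreceptor markers ran from 59485 to 79472 CPM, against 287 to 1194 CPM for 6 ganglion cell markers, so the samples are described here as whole retina.

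TLRs are pattern recognition receptors of innate immune cells, which in the retina are chiefly microglia. TLR2 and TLR4 sit at the cell surface and recognize bacterial lipids, and TLR3, TLR7 and TLR13 sit in endosomes and recognize RNA. CD180 is a TLR-like surface protein that lacks the intracellular signalling domain. UNC93B1 escorts the endosomal receptors from the endoplasmic reticulum to endolysosomes, and the exonuclease PLD4 degrades single-stranded nucleic acids there. Every TLR except TLR3 signals through the adaptor MYD88, which recruits the kinase IRAK4.

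The members lie on 9 chromosomes of the mouse genome (GRCm38, GENCODE vM21), and all are protein coding. Unc93b1 (ENSMUSG00000036908) lies on the plus strand at chr19:3935186-3949340, Pld4 (ENSMUSG00000052160) on the plus strand at chr12:112760655-112768990 and Cd180 (ENSMUSG00000021624) on the plus strand at chr13:102693558-102739629. The surface receptor genes Tlr2 and Tlr4 lie at chr3:83836272-83841767 and chr4:66827584-66930284. Of the endosomal receptor genes, Tlr3 lies at chr8:45395665-45411080, while Tlr7 and Tlr13 lie on the X chromosome, at chrX:167304929-167330558 and chrX:106143204-106160493. Myd88 lies at chr9:119335934-119341411 and Irak4 at chr15:94543643-94581815. Cd180 overlaps Mast4 on the opposite strand, Irak4 overlaps Twf1, Myd88 overlaps Acaa1a and Tlr3 overlaps Gm45542 in the same way. Myd88 also overlaps Slc22a14 on the same strand, which stranded counting does not separate. The libraries were stranded, but the strand setting of the read counting is not given in the sources used here, so part of the reads of these 4 members could come from the partner. At 1 week the partner Mast4 had 23.0 ± 1.64 CPM in sham retinas and 22.8 ± 2.83 CPM in bTBI retinas (SD, n = 6 each).

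The promoters of Pld4, Cd180, Tlr2 and Tlr13 (RefSeq, GRCm38.p6) are shown because these 4 genes were higher in the same retinas. Those of Unc93b1, Tlr4 and Tlr7 were not analysed here. Each window runs from 250 bases before the start to 30 bases after it, 5′ to 3′ on the strand of the gene. Capitals mark matches, on either strand, to GAGGAA (the core motif of the myeloid factor PU.1) or to the NF-kB consensus. The windows lie at chr12:112760405-112760684 (plus strand), chr13:102693297-102693576 (plus strand), chr3:83841579-83841858 (minus strand) and chrX:106143025-106143304 (plus strand).
Pld4: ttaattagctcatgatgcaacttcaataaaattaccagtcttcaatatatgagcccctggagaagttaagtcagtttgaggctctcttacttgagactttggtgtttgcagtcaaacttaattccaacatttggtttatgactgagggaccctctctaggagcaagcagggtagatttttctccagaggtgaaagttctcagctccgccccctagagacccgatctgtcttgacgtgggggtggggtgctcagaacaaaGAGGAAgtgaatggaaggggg
Cd180: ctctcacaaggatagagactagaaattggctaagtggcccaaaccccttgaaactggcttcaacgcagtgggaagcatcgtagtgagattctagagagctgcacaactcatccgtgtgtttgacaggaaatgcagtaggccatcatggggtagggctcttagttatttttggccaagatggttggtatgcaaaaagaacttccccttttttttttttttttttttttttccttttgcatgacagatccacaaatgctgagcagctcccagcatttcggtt
Tlr2: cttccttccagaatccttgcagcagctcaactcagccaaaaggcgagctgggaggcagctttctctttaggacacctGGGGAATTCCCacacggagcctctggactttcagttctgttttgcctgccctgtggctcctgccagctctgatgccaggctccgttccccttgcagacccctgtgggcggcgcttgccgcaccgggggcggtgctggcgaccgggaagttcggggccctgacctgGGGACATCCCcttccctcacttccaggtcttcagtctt
Tlr13: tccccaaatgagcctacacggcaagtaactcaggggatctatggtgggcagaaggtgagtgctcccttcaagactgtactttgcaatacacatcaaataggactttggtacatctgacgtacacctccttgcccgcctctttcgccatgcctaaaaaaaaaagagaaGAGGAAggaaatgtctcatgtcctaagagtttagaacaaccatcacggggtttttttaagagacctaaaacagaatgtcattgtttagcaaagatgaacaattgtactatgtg

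Counting the start as base 1, the Pld4 window holds GAGGAA from base 10, and the Tlr13 window holds it from base -83. The Tlr2 window holds 3 matches to the NF-kB consensus, a pair that overlap from bases -173 and -172 and 1 from base -8. GAGGAA occurs in 26.0% of all 32851 RefSeq windows of this length and the NF-kB consensus in 7.94%. The Cd180 window holds neither of these nor the interferon-response core GAAANNGAA or the STAT site TTCNNNGAA, which occur in 8.06% and 7.83% of the windows. In the Myd88 window GAAANNGAA from base -40 and TTCNNNGAA from base -46 overlap, the Tlr3 window holds 1 match to the NF-kB consensus, and the Irak4 window holds none of the 4 motifs. These matches describe letters in the windows and were not tested as binding sites.

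The values are CPM, read counts scaled to a common effective library size. The depth, inferred from the smallest step between values, ran from 14301989 to 25158638 reads per retina, so 1 read was worth 0.0404 to 0.0679 CPM. Fold changes are differences of mean log2(CPM + 1), bTBI minus sham, and understate the change of low genes. A gene was called when the p-value of limma, adjusted by Benjamini-Hochberg over all genes of the table, was under 0.005. In both tables the sixth highest value of every gene was at least 0.990 CPM, so a gene at about 1 CPM in fewer than 6 of 12 retinas is not listed. At 1 week Cd180 and Tlr13 reached 1 CPM in 0 sham retinas and Tlr2 in 1, and each did so in 6 bTBI retinas. These 3 genes passed the filter only through the bTBI group, so they had to differ.

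At 1 week the transcripts for the transport protein, the nuclease and several receptors were higher in bTBI retinas. Of the 9 members in the table, 5 were called higher (Unc93b1, Pld4, Cd180, Tlr2 and Tlr13) and 0 lower, beside 1.27% of all genes called higher, 0.985% called lower and 2.25% called in either direction. In the same 5 members each of the 6 bTBI retinas lay above every sham retina, which was so for 1.59% of all genes. The rule that picked the members used this contrast, so the counts say nothing beyond the choice.

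**Figure D1:**
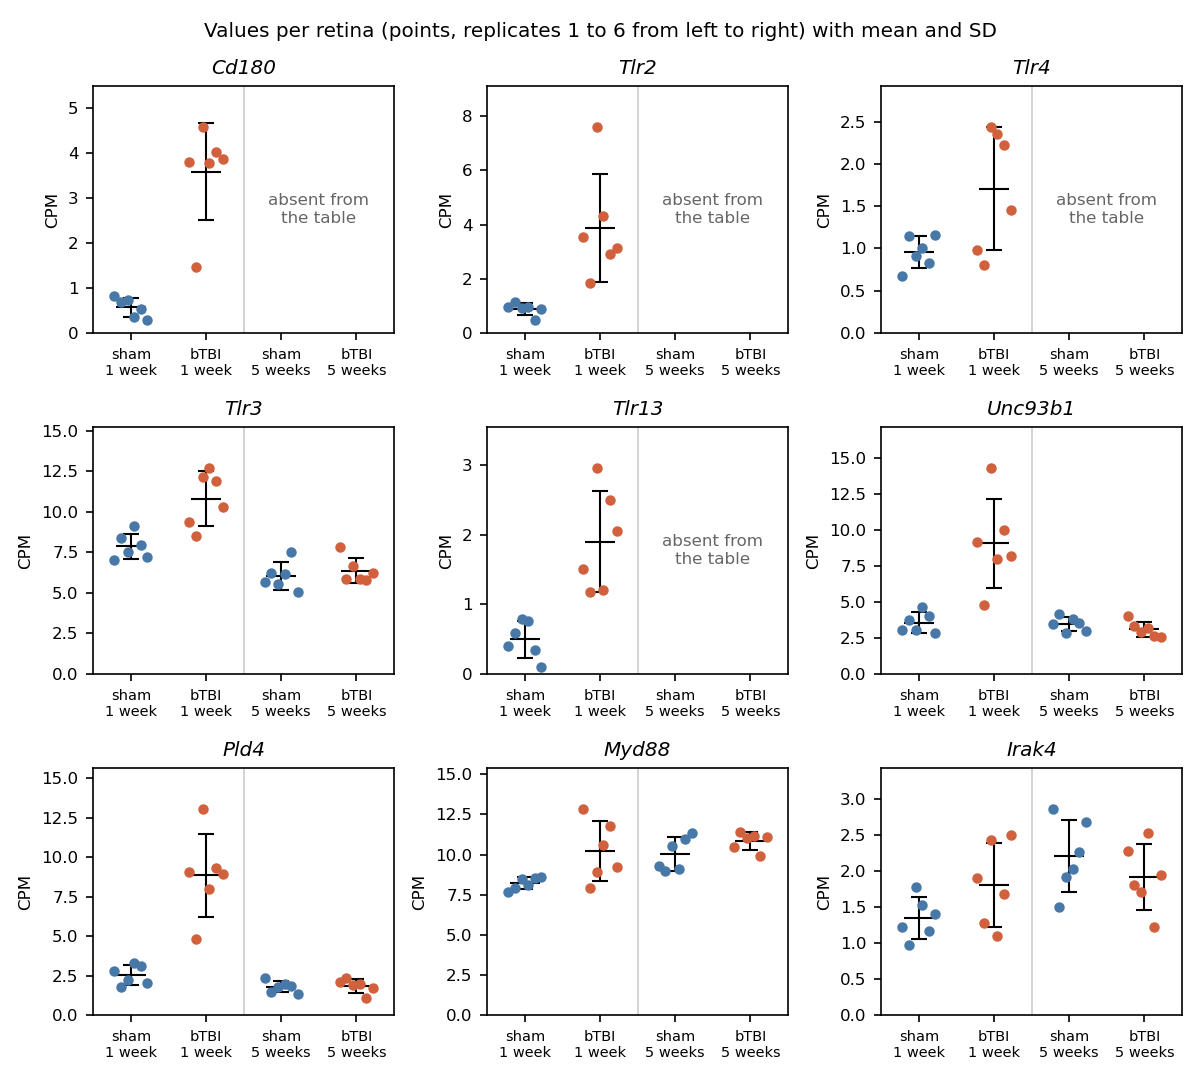
CPM of the 9 members in the table of 1 week and, where listed, at 5 weeks. Points are single retinas (blue sham, red bTBI, n = 6 per group), and black lines give mean and SD. At 1 week the bTBI points of Cd180, Tlr2, Tlr13, Unc93b1 and Pld4 lie above every sham point, and at 5 weeks the groups overlap in the 5 genes listed.

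Of the surface receptors, Cd180 had the largest difference, and the largest of the members. Its value in sham retinas ran from 0.291 to 0.815 CPM with a median of 0.609, which is 6 to 18 reads, and in bTBI retinas from 1.46 to 4.58 CPM with a median of 3.84, which is 31 to 96 reads. The groups did not overlap, and the log2 fold change was 1.51 (SE 0.17), a ratio of means of 6.29. bTBI replicate 2 lay at the lower end with 1.46 CPM, while the other 5 bTBI retinas lay between 3.79 and 4.58 CPM. Tlr2 ran from 0.489 to 1.15 CPM (median 0.928) in sham retinas and from 1.84 to 7.60 CPM (median 3.34) in bTBI retinas, again without overlap and with a log2 fold change of 1.30 (SE 0.20). Tlr4 ran from 0.679 to 1.16 CPM (median 0.958) in sham retinas and from 0.801 to 2.44 CPM (median 1.84) in bTBI retinas. Only 4 bTBI retinas lay above every sham retina for Tlr4, bTBI replicates 1 and 2 fell within the sham range, and the log2 fold change was 0.43 (SE 0.16), which was not called.

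Among the endosomal RNA receptors, Tlr3 was the most abundant and had the smallest difference. It ran from 7.06 to 9.10 CPM (median 7.73) in sham retinas and from 8.48 to 12.7 CPM (median 11.1) in bTBI retinas. In 5 of the 6 bTBI retinas Tlr3 exceeded its highest sham value. The log2 fold change was 0.41 (SE 0.10), which was not called. Tlr13, a receptor for bacterial ribosomal RNA, was low, from 0.0969 to 0.787 CPM (median 0.501, 2 to 19 reads) in sham retinas and from 1.18 to 2.96 CPM (median 1.78, 21 to 55 reads) in bTBI retinas. The log2 fold change of Tlr13 was 0.93 (SE 0.17) and the groups did not overlap. It was called when all 12 retinas were used but no longer passed the threshold after the omission of any of 7 single retinas (sham replicates 1, 2, 5 and 6 and bTBI replicates 3, 5 and 6). Tlr7, a receptor for single-stranded RNA, is absent from both tables.

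Unc93b1 and Pld4, which act on the endosomal receptors and their ligands, moved closely together across retinas. Unc93b1 ran from 2.81 to 4.67 CPM (median 3.40) in sham retinas and from 4.81 to 14.3 CPM (median 8.66) in bTBI retinas. That is a log2 fold change of 1.10 (SE 0.18) and a ratio of means of 2.55. Pld4 ran from 1.79 to 3.31 CPM (median 2.49) in sham retinas and from 4.81 to 13.05 CPM (median 8.98) in bTBI retinas. Here the log2 fold change was 1.45 (SE 0.17) and the ratio of means 3.50. For both genes bTBI replicate 3 was the highest retina and bTBI replicate 2 the lowest of the bTBI retinas, and the groups did not overlap. With the group means subtracted, Pearson's r between both genes was 0.89 over the 12 retinas. By this measure Capg was closer to Unc93b1 (0.942) and Mpeg1 closer to Pld4 (0.939), so the closeness is not particular to this pair.

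Myd88 and Irak4 encode the shared signalling proteins. Myd88 ran from 7.67 to 8.62 CPM (median 8.27) in sham retinas and from 7.92 to 12.8 CPM (median 9.92) in bTBI retinas. In 5 of the 6 bTBI retinas Myd88 exceeded its highest sham value, and its log2 fold change of 0.27 (SE 0.10) was not called. Irak4 ran from 0.978 to 1.78 CPM (median 1.31) in sham retinas and from 1.09 to 2.50 CPM (median 1.79) in bTBI retinas. The groups overlapped, with 3 bTBI retinas above every sham retina, and its log2 fold change of 0.24 (SE 0.14) was not called.

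Levels were compared between members only per kb of exon. In sham retinas at 1 week, Myd88 was the highest with 3.19 ± 0.147 CPM per kb (SD, n = 6), followed by Tlr3 with 1.51 ± 0.148, Unc93b1 with 1.17 ± 0.235 and Pld4 with 0.731 ± 0.177 CPM per kb. The sham ranges of Tlr3 and Unc93b1 overlapped, and so did those of Unc93b1 and Pld4. Below these lay Tlr2 with 0.294 ± 0.0718, Irak4 with 0.269 ± 0.0570, Tlr4 with 0.172 ± 0.0338, Cd180 with 0.127 ± 0.0474 and Tlr13 with 0.116 ± 0.0623 CPM per kb, and each overlapped its neighbours in this order. In bTBI retinas at 1 week the order was Myd88, Unc93b1, Pld4, Tlr3, Tlr2, Cd180, Tlr13, Irak4 and Tlr4. Unc93b1 then stood at 2.99 ± 1.02 CPM per kb and Pld4 at 2.56 ± 0.764, beside 2.08 ± 0.325 for Tlr3. At 5 weeks the sham order of the 5 listed members was Myd88, Tlr3, Unc93b1, Pld4 and Irak4, with the ranges of Tlr3 and Unc93b1 and those of Pld4 and Irak4 overlapping.

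**Figure D2:**
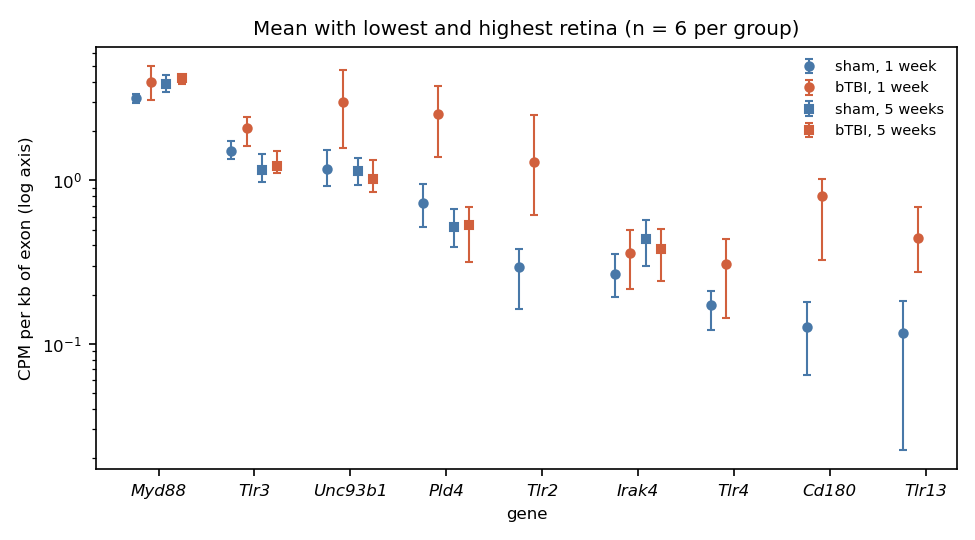
Level per kb of exon (log axis) of each member, ordered by the sham level at 1 week. Symbols are group means and bars run from the lowest to the highest of 6 retinas (circles 1 week, squares 5 weeks, blue sham, red bTBI). Myd88 has the highest mean in every group, and the 4 lowest sham means at 1 week are those of Irak4, Tlr4, Cd180 and Tlr13.

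At 5 weeks, a timepoint the choice of members did not use, none of the members differed between bTBI and sham by the test. Of the 5 members in the table, 0 were called, beside 0.835% of all genes called (0.0126% higher and 0.823% lower), and 0 had an unadjusted p under 0.05 in limma, beside 10.9% of all genes. For 0 of the 5 did all bTBI retinas lie above every sham retina, which was so for 0.239% of all genes. Unc93b1 ran from 2.83 to 4.15 CPM (median 3.49) in sham retinas and from 2.57 to 4.01 CPM (median 3.04) in bTBI retinas. Its log2 fold change was -0.12 (95% interval -0.34 to 0.09, limma adjusted p = 0.760), and 2 bTBI retinas lay below every sham retina. Pld4 ran from 1.36 to 2.32 CPM (median 1.82) in sham retinas and from 1.10 to 2.37 CPM (median 1.93) in bTBI retinas. Its log2 fold change was 0.02 (interval -0.22 to 0.27, limma adjusted p = 0.974), and the sign of this value changed with the omission of any of 4 single retinas. The difference of these genes between timepoints was not tested, since the values at 1 week chose the genes.

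The sham and bTBI ranges of the other members listed at 5 weeks overlapped too. Tlr3 ran from 5.09 to 7.54 CPM (median 5.93) in sham retinas and from 5.80 to 7.84 CPM (median 6.04) in bTBI retinas, with a log2 fold change of 0.07 (interval -0.12 to 0.26, limma adjusted p = 0.879). Myd88 ran from 8.98 to 11.4 CPM (median 9.91) in sham retinas and from 9.93 to 11.4 CPM (median 11.1) in bTBI retinas, with a log2 fold change of 0.11 (interval -0.04 to 0.26, limma adjusted p = 0.666). Irak4 ran from 1.51 to 2.86 CPM (median 2.15) in sham retinas and from 1.22 to 2.54 CPM (median 1.87) in bTBI retinas, with a log2 fold change of -0.14 (interval -0.40 to 0.12, limma adjusted p = 0.781). For Tlr3 and for Myd88, 1 bTBI retina lay above every sham retina, and for Irak4, 1 lay below. Cd180, Tlr2, Tlr4, Tlr7 and Tlr13 are absent from the table of 5 weeks, so no difference can be given for them.

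**Figure D3:**
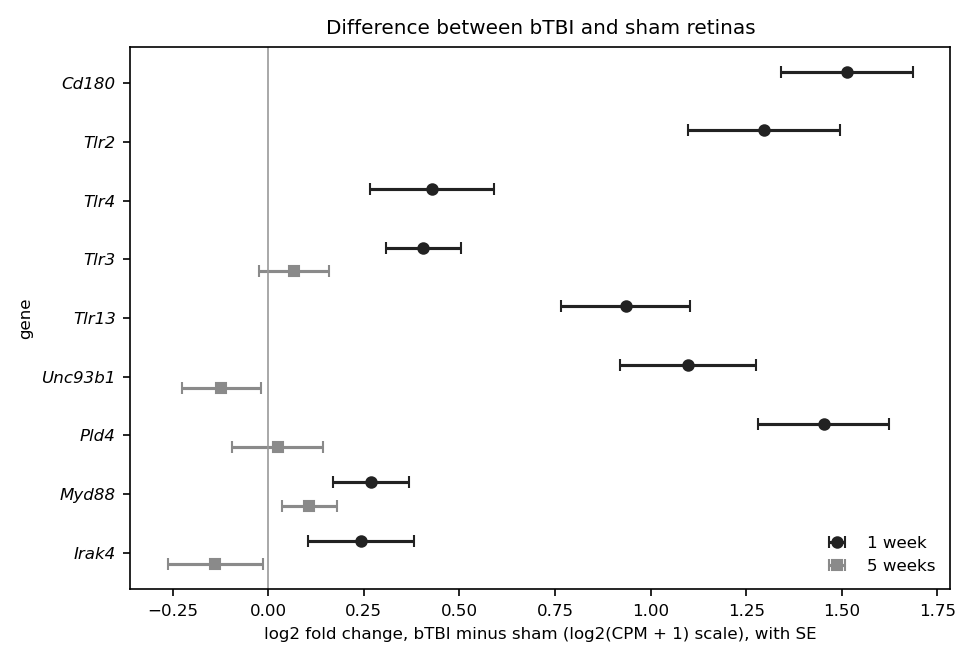
Log2 fold change (bTBI minus sham, log2(CPM + 1) scale) of each member at 1 week (circles) and 5 weeks (squares), with its SE. The values at 1 week run from 0.24 for Irak4 to 1.51 for Cd180, and those at 5 weeks from -0.14 for Irak4 to 0.11 for Myd88.

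At 1 week the bTBI retinas with the lowest and the highest sum of microglial markers were also extreme for several members. Of 12 microglial markers, 11 are in the table of 1 week, and their summed value ran from 105 to 156 CPM in sham retinas and from 159 to 311 CPM in bTBI retinas. The log2 fold changes of these markers ran from 0.46 (Csf1r) to 1.42 (Fcrls) with a median of 0.87, and 6 of the 11 were called higher. bTBI replicate 2 had the lowest marker sum of the bTBI retinas, 159 CPM, and the lowest value of Unc93b1, Pld4, Cd180, Tlr2, Tlr3, Tlr4, Tlr13 and Myd88. bTBI replicate 3 had the highest marker sum, 311 CPM, and the highest value of Unc93b1, Pld4, Cd180, Tlr2, Tlr4 and Tlr13. Replicate 3 also had the high value of the myelin gene Mbp given below, and the part of carried-over tissue in these values was not tested. Among sham retinas the order was mixed. Sham replicate 1 had the highest marker sum, 156 CPM, and the highest Cd180, but the lowest Tlr3, Tlr4 and Myd88. Sham replicate 6 had the lowest sum, 105 CPM, and the lowest Unc93b1, Cd180 and Tlr13, but the highest Tlr4 and Myd88. Per 100 CPM of marker sum, Pld4 had 1.56 to 2.28 CPM in sham retinas and 3.03 to 4.57 CPM in bTBI retinas, and Cd180 had 0.229 to 0.618 and 0.920 to 1.99 CPM, both without overlap. Both genes were picked for their rise in these same retinas, so this separation says nothing beyond the choice. Unc93b1 had 1.96 to 3.27 CPM in sham retinas and 3.03 to 4.66 CPM in bTBI retinas per 100 CPM of marker sum, and here the groups overlapped. On the same scale the median of Myd88 was 6.61 CPM in sham and 5.05 CPM in bTBI retinas, that of Tlr3 6.07 and 5.31 CPM, that of Irak4 0.930 and 0.783 CPM and that of Tlr4 0.702 and 0.763 CPM. The medians of Tlr2, 0.683 and 1.51 CPM, and of Tlr13, 0.379 and 0.846 CPM, were higher in bTBI retinas. In whole tissue, more microglia and more RNA of a gene per cell cannot be told apart. Csf1r made up most of the sum in sham retinas (74.9 CPM) and had the smallest log2 fold change of the 11 markers. A gene picked for a larger rise therefore tends to be higher per marker sum too. The part of microglial number in these differences was not tested.

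**Figure D4:**
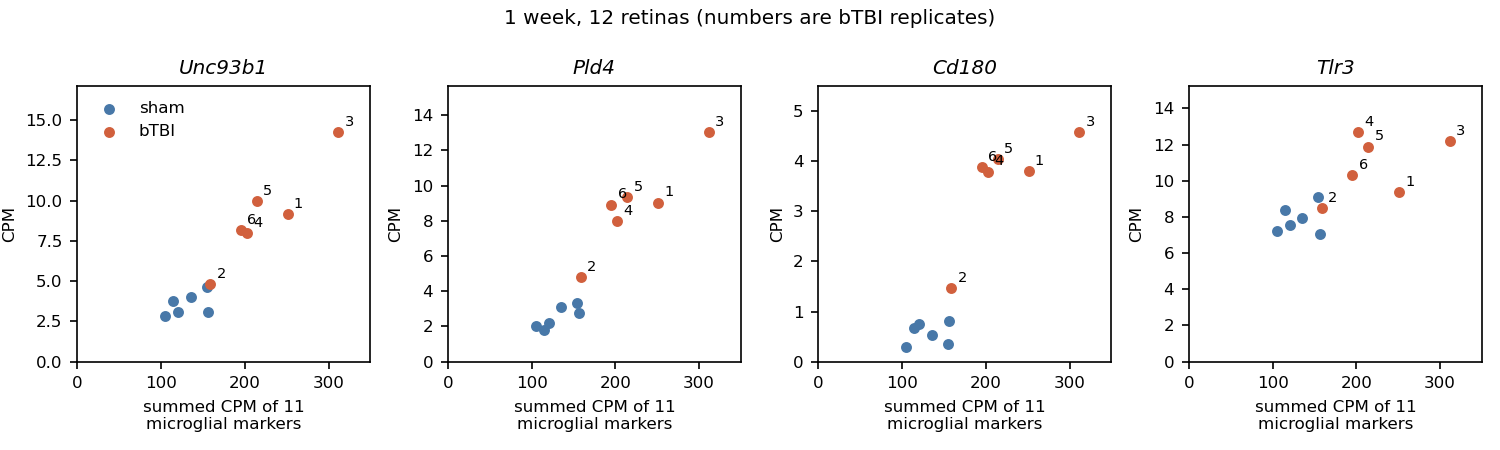
CPM of Unc93b1, Pld4, Cd180 and Tlr3 against the summed CPM of 11 microglial markers in each of 12 retinas at 1 week (blue sham, red bTBI, numbers are bTBI replicates). bTBI replicate 2, with a marker sum of 159 CPM beside a sham maximum of 156 CPM, lies nearest to the sham retinas, and replicate 3 has the highest sum, 311 CPM. Replicate 3 also has the highest value of the myelin gene Mbp.

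At 5 weeks 9 of the 12 microglial markers are in the table, with a summed value of 67.1 to 75.8 CPM in sham retinas and 69.8 to 82.5 CPM in bTBI retinas, and 0 were called. Markers of B cells (0 of 5), of T and NK cells (0 of 5) and of infiltrating monocytes and neutrophils (0 of 8, among them Ccr2, S100a8 and S100a9) are absent from both tables. Markers of ganglion cells moved with the group too. At 1 week 5 of 6 retinal ganglion cell markers were called lower, with sums of 941 to 1194 CPM in sham and 507 to 886 CPM in bTBI retinas, and bTBI replicate 2, lowest in microglial markers, had the highest ganglion cell sum of the bTBI retinas. At 5 weeks 6 of 6 were called lower. Of 5 Müller glia markers and of 5 photoreceptor markers, 0 were called at either timepoint. The part of these cells in the values of the members was not tested. Genes of other tissues were high in single retinas. At 1 week bTBI replicates 5 and 6 had 3881 and 7648 CPM of 7 lens genes, against at most 727 CPM in any other retina, and bTBI replicate 3 had 2531 CPM of the myelin gene Mbp, against at most 139 CPM in any other retina. Without bTBI replicates 5 and 6, the log2 fold changes were 1.07 for Unc93b1, which then was not called, and 0.83 for Tlr13, also not called, while Pld4, Cd180 and Tlr2 were called, which left 3 members past the threshold. Pld4 and Cd180 were picked for their rise here, and Cd180 and Tlr2 had to differ. Their calls are thus description only, and the part of carried-over tissue was not tested. Without replicates 3, 5 and 6, which left 3 bTBI retinas, the values were 0.84 for Unc93b1, 1.21 for Pld4, 1.30 for Cd180, 1.12 for Tlr2 and 0.63 for Tlr13, and 0 members and 8 genes of the whole table were called. This last omission was chosen after the data were seen.

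The genes whose values were most like those of the members were compared over the 12 retinas of 1 week among 14829 genes whose mean log2 value reached 1, as a description. As measured, where the difference between the groups enters the correlation, Unc93b1 was closest to C1qc (r = 0.984), S100a6 (0.982) and Mpeg1 (0.981), and Pld4 to Ctss (0.986), C1qc (0.986) and Mpeg1 (0.981). Cd180 was closest to Gbp7 (0.972), Trim30a (0.971) and Lyn (0.969). With the group means subtracted, Unc93b1 was closest to Capg (0.942), S100a6 (0.940) and Fgl2 (0.940). Pld4 was then closest to Mpeg1 (0.939), C1qc (0.937) and Ctss (0.933), which were also its nearest genes as measured. For Cd180 the nearest genes changed to Calhm5 (0.919), Apobec3 (0.882) and Trim12c (0.876). The retinas share their library, their depth and the tissue carried over with them.

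The other genes of the pathway were followed in 9 lists with 103 genes that are not members, 68 of them in the table of 1 week and 65 in that of 5 weeks. At 1 week 12 of the 68 were called higher in bTBI retinas and 0 lower, beside 1.27% and 0.985% of all genes. Their median log2 fold change was 0.14, beside -0.000235 over all genes tested. The lists were chosen with earlier results of these data known, so their counts and p-values are not an independent test. At 5 weeks 0 of the 65 were called, beside 0.835% of all genes, with a median of 0.02 beside 0.00125 over all genes. Of the 65, 9 had an unadjusted p under 0.05 in limma, where 10.9% of all genes did. The calls at 1 week fell in 4 lists, and the microglial marker sums given above were also higher in bTBI retinas. Without bTBI replicates 5 and 6, 4 of the 12 were called (Ctss, Ddx58, Irf7 and Ly86), and without 3, 5 and 6, 0.

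**Figure D5:**
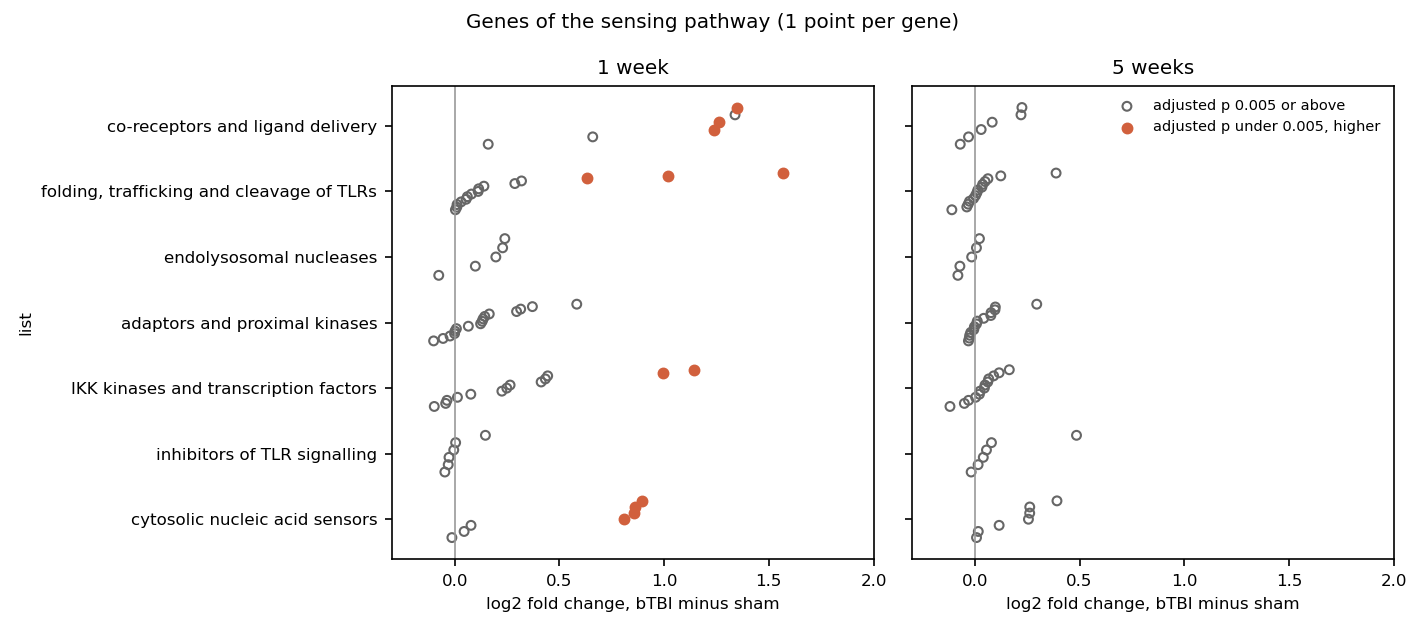
Log2 fold change (bTBI minus sham) of the genes in 7 lists of the sensing pathway at 1 week (left) and 5 weeks (right), 1 point per gene. Filled points passed the test (limma adjusted p under 0.005). At 1 week 12 genes in 4 lists did, all higher in bTBI retinas, and at 5 weeks 0 did.

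Of 7 further TLR genes, Tlr1, Tlr6, Tlr8 and Tlr9 among them, 0 are in either table. Of 6 co-receptor and ligand delivery genes in the table of 1 week, 3 were called. Ly86 (MD-1, which forms a complex with CD180) rose from 3.53 ± 0.908 to 10.1 ± 4.24 CPM (SD, n = 6), with a log2 fold change of 1.24 (SE 0.20, limma adjusted p = 0.00120). For Ly86 each of the 6 bTBI retinas lay above every sham retina. Cd180 was picked for its rise and had to differ, so its values add nothing to this. Trem2 and Fcer1g, microglial receptor and immunoreceptor adaptor genes, had log2 fold changes of 1.26 (SE 0.22) and 1.35 (SE 0.26), with adjusted p = 0.00222 and 0.00420 by limma. Cd14, which hands lipopolysaccharide to TLR4, had 1.16 ± 0.397 CPM in sham and 2.58 ± 1.63 CPM in bTBI retinas and did not pass the test (log2 fold change 0.66, limma adjusted p = 0.0753). Ly96, which encodes the TLR4 partner MD-2, is absent from both tables.

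In the list of folding, trafficking and cleavage of TLRs, all 15 genes are in the table of 1 week and 3 were called. Ctss, a lysosomal protease that cleaves endosomal TLRs, rose from 23.5 ± 5.05 to 74.7 ± 29.7 CPM, with a log2 fold change of 1.57 (SE 0.20, limma adjusted p = 0.000334). Slc15a3, an endolysosomal peptide transporter, rose from 0.506 ± 0.0982 to 2.15 ± 0.980 CPM (1.02, SE 0.16), and passed the filter of the table through the bTBI group. Grn, a lysosomal protein precursor, rose from 52.3 ± 5.11 to 82.3 ± 14.4 CPM (0.63, SE 0.10). Of 5 further endolysosomal nuclease genes in the table, 0 were called, where 2.25% of all genes were. Pld3, the relative of Pld4 with the same kind of exonuclease activity, had 168 ± 8.04 CPM in sham and 159 ± 6.94 CPM in bTBI retinas, with a log2 fold change of -0.08 (SE 0.04, limma adjusted p = 0.422).

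Downstream of the receptors, 0 of 16 adaptor and proximal kinase genes and 0 of 6 inhibitor genes were called at 1 week, beside 2.25% of all genes. Counts of 0 in lists of this size lie near that share. Of 13 genes of IKK kinases and transcription factors, Irf7 and Irf8 rose, by 1.14 (SE 0.18) and 1.00 (SE 0.15) on the log2 scale, with limma adjusted p = 0.000922 and 0.000954. Of 15 cytokine and effector genes that TLRs induce, Tnf, Il1b, Il6, Ifnb1 and Cxcl10 among them, 0 are in either table. The last list holds cytosolic sensors and their adaptors, which do not use UNC93B1. Of the 7 listed at 1 week, 4 were called, and the 3 with the smallest p were Ddx58 with a log2 fold change of 0.86 (SE 0.10), Ifih1 with 0.89 (SE 0.14) and Dhx58 with 0.86 (SE 0.16), all RNA helicase sensors. The fourth, Tmem173 (STING), had a log2 fold change of 0.81 (SE 0.16). The DNA sensor gene Aim2 (0.04, SE 0.15), the adaptor gene Mavs (0.08, SE 0.07) and Nod1 (-0.01, SE 0.12), a sensor of peptidoglycan, were not called.

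The bTBI effects at the 2 timepoints were compared for the 64 pathway list genes in both tables. By the test of the difference itself (limma, all 24 retinas, adjusted over 14455 genes, of which 0.104% were called), 0 of the 64 passed the threshold. The smallest adjusted p were 0.00509 for Grn and 0.00739 for Ly86, whose log2 fold changes were lower at 5 weeks than at 1 week by 0.66 (SE 0.12) and 1.21 (SE 0.23). This count rested on single retinas: without bTBI replicate 2 of 1 week, 9 genes passed (Ctss, Fcer1g, Grn, Ifih1, Irf7, Irf8, Ly86, Trem2 and Tyrobp), without sham replicate 4 of 1 week or bTBI replicate 1 of 5 weeks 3 did, and without bTBI replicate 3 or 6 of 1 week Ly86 alone did. At 5 weeks Ctss was the pathway gene with the smallest p, from 11.0 ± 0.865 CPM in sham to 14.8 ± 2.23 CPM in bTBI retinas, with each of the 6 bTBI retinas above every sham retina. Its log2 fold change was 0.39 (SE 0.08) and it did not pass the threshold (limma adjusted p = 0.0101). Ly86 had 1.80 ± 0.262 CPM in sham and 1.85 ± 0.249 CPM in bTBI retinas at 5 weeks (log2 fold change 0.03, limma adjusted p = 0.962).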

How the data were processed

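The deposited signal values resemble CPM: the authors scaled each retina's gene counts by its effective library size, after STAR mapping to GRCm38 (mm10), featureCounts and edgeR, with low genes removed. The study called genes at an FDR under 0.005, and so did this work. Libraries were stranded and polyA selected, and by the study's methods the 6 retinas of a group came from 6 mice. The members and gene lists were chosen with earlier results of these data known.

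On the log2(CPM + 1) scale, bTBI and sham retinas of a timepoint were compared by limma 3.58.1 under R 4.3.3 (trended prior, Benjamini-Hochberg over all genes of the table). The difference between timepoints was tested in a fit of all 24 retinas. The fit recovered known changes in made-up data. Within a timepoint these were added only to genes with a mean log2(CPM + 1) above 1 in sham retinas. The range of Cd180, Tlr2, Tlr4 and Tlr13 was therefore not covered. For the difference between timepoints only a log2 change of 2 was tried, larger than that of any pathway list gene. Named genes were all members, up to 3 called genes per list with the smallest p, genes called at 5 weeks, Tlr1, Tlr6, Tlr8, Tlr9, Ly86, Ly96, Cd14, Pld3, and the 3 genes most like Unc93b1, Pld4 and Cd180. Tmem173, Tyrobp, Aim2, Mavs, Nod1, the markers Glul, Aqp4, Slc1a3 and Arr3, and Ctss at 5 weeks were named after their values were seen. Symbols came from a GENCODE name table, which matched 14907 of 14922 identifiers at 1 week and 15902 of 15920 at 5 weeks, the 9 members listed included. Alternatives were a pseudocount of 0.1, a filter, 2 scalings, a robust prior, a replicate block, a threshold of 0.05, a single fit and the omission of retinas.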

Additional observations from a re-analysis of the deposited data

Results flagged for a closer look

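Cd180 in bTBI replicate 2 at 1 week, 1.46 CPM, lay apart from the other bTBI retinas, the next of which had 3.79 CPM. The gap was 0.747 of the range of the group, above Dixon's 95% critical value. It was the single such value among 28 groups of 6 retinas looked at (sham and bTBI, for the 9 members of the earlier and the 5 of the later table), and chance flags about 1 in 20 groups. The same retina had the lowest microglial marker sum of the bTBI group, 159 CPM.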

How the results depend on the processing

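The log2 fold changes of the 9 members at 1 week kept their sign under every alternative run. For Unc93b1, Pld4 and Cd180, picked for their rise, and for Tlr2 and Tlr13, listed only through the bTBI group, this follows largely from the choice or the filter. Without single retinas, 189 to 486 genes, 7 to 14 pathway list genes and 4 to 5 members were called at 1 week, where 336, 12 and 5 were called with all 12. The lowest counts of genes came without sham replicate 2 (189), 3 (206) or 5 (204) or bTBI replicate 5 (204) or 6 (217), and 7 pathway list genes were called without sham replicate 2, 3 or 5 or bTBI replicate 6. Without bTBI replicates 5 and 6 the counts were 112, 4 and 3, and without 3, 5 and 6 they were 8, 0 and 0. A single fit of 24 retinas, which holds only the genes and the 5 members in both tables, called 685 genes and 3 members at 1 week (Unc93b1, Pld4 and Tlr3), and 75 genes at 5 weeks. A threshold of 0.05 called 907 genes at 1 week and 326 at 5 weeks. At 5 weeks 133 genes were called, 88 to 163 without single retinas (88 without sham replicate 2), and 0 members under every alternative. A robust prior or a threshold of 0.05 called 1 pathway list gene at 5 weeks, Ctss, and 0 were called without single retinas. The pathway list genes whose effect differed between timepoints were 0, and 0 to 9 without single retinas. Pld4 at 5 weeks ran from -0.0266 to 0.110 on the log2 scale without single retinas, with 4 of 12 values below 0. For retinas with the same replicate number, the correlations of their deviations spanned -0.25 to 0.54 at 1 week and -0.11 to 0.15 at 5 weeks. The value of 0.54 was that of replicate 1, and the others at 1 week were at most 0.17. Whether the replicate numbers pair retinas cannot be told from these values. With the replicate block Tlr13 was not called at 1 week (log2 fold change 0.93) and no other member changed its call. The causes were not tested. A count test on reads recovered from the steps was not run. Few reads limit Cd180 and Tlr13, with 2 to 19 per sham retina.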
